A study of Mus musculus with 30 samples.

Results

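The Kelch-like (Klhl) and KBTBD genes were followed in 30 mice in the soleus, a muscle of the calf that works against gravity. Members were all genes of the count table with a symbol made of Klhl or Kbtbd and a number, and with at least 10 raw counts in at least 7 of the 30 libraries. Of 45 genes with such a symbol 39 passed, 31 Klhl and 8 Kbtbd genes, out of 56980 genes in the table. The 6 that did not pass were Klhl1, Klhl10, Klhl14, Klhl32, Klhl35 and Kbtbd6, none of which reached 10 counts in more than 2 libraries. All 39 entered the test, and none was lost to its own filter on low counts.

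The mice were C57BL/6J, aged 3 to 4 months, of both sexes. Controls (Ctrl) carried floxed alleles of AMPKalpha1 and alpha2, the catalytic subunits of AMP-activated protein kinase, and no Cre. The knockouts (mKO) lacked both subunits in muscle only. Mice of each genotype were either ambulatory (AMB) or had the hindlimbs unloaded (HU) for 4 weeks, which gave 8 AMB Ctrl, 7 AMB mKO, 7 HU Ctrl and 8 HU mKO mice. The sexes were unequal between groups. Females and males numbered 5 and 3 in AMB Ctrl, 2 and 5 in AMB mKO, 3 and 4 in HU Ctrl, and 5 and 3 in HU mKO. The labels name neither the promoter that drives Cre nor the age at which it acts, and every knockout carried Cre while no control did, so effects of Cre itself and of the missing AMPK cannot be told apart.

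Klhl and KBTBD proteins share a BTB domain, which binds the scaffold CUL3, and kelch repeats, which bind a substrate. Most that have been studied bring their substrate to a CUL3 ubiquitin ligase, which marks it for breakdown or changes its activity. Several are known from striated muscle: KLHL40 and KLHL41 stabilise the thin filament proteins nebulin and leiomodin-3, and defects of KLHL40, KLHL41 or KBTBD13 cause nemaline myopathy, an inherited muscle disease.

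Library totals ran from 12.1 to 20.9 M (mega) counts. Transcripts of Prkaa2, the gene of AMPKalpha2, averaged 213 ± 28.3 (SD, n = 8) CPM (read counts scaled to a common library size by the TMM factors) in AMB Ctrl and 60.3 ± 26.3 CPM (SD, n = 7) in AMB mKO mice, 254 ± 73.2 CPM in HU Ctrl and 80.1 ± 18.5 CPM in HU mKO mice, and the genotypes did not overlap at either loading. Prkaa1 (AMPKalpha1) averaged 20.99 ± 2.74 CPM in AMB Ctrl and 17.2 ± 9.03 CPM in AMB mKO mice, 25.3 ± 2.98 CPM in HU Ctrl and 17.5 ± 3.88 CPM in HU mKO mice, and was not called in either comparison of genotypes in edgeR (log2 -0.20 ± 0.18 and -0.60 ± 0.18, unadjusted p = 0.278 and 0.00239, adjusted p = 0.891 and 0.9999). The library of AMB mKO replicate 2 stood apart. The sum of 6 slow fibre markers was 258 CPM there and 6849 CPM or more in the other 29 libraries, and that of 8 adipocyte markers was 16538 CPM there and 6111 CPM or less elsewhere. HU mKO replicates 3 and 2 came next in the adipocyte sum (6111 and 5869 CPM). The same 3 libraries had the highest sums of 5 Schwann cell markers, 1316 CPM in AMB mKO replicate 2, 1467 in HU mKO replicate 3 and 731 in HU mKO replicate 2, against 624.9 CPM or less elsewhere. In whole-muscle RNA, fewer cells of a type and less RNA per cell cannot be told apart.

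The kelch genes of soleus spanned a wide range of levels. To compare genes, CPM were divided by the exon length of each gene, taken from GENCODE vM21, and averaged over the 4 groups. Klhl41 stood first at 318 CPM per kb (SD over the 30 mice 103), followed by Klhl31, whose protein is known to act on filamin C, at 93.7 ± 41.3, Klhl40 at 59.6 ± 18.9 and Klhl38 at 48.6 ± 20.4. Klhl24 (37.5 ± 7.66), Klhl34 (28.6 ± 22.3), Klhl9 (22.2 ± 4.57), Klhl33 (22.2 ± 12.6) and Klhl21 (21.7 ± 8.61) followed. From Klhl31 down, each of these genes differed from the next by less than the larger SD of the pair. The 6 lowest members, in falling order Klhl15, Klhl3, Klhl6, Kbtbd11, Klhl4 and Kbtbd8, lay between 1.03 and 0.44 CPM per kb.

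Unloading changed single members of the family. In controls 3 of the 39 rose and 2 fell, 12.8% of members, where 11.1% of all 16932 genes tested were called (5.37% higher and 5.74% lower). In mKO mice 2 rose and 2 fell, 10.3% of members against 10.1% of all genes (5.3% higher and 4.75% lower). Both shares were near the background. The median log2 change was -0.06 over the members and 0.03 over all genes in controls, and -0.0030 and -0.04 in mKO mice. A gene was called, and is said here to have risen or fallen, when edgeR's quasi-likelihood test, in a model of group and sex, gave a p under 0.05 after Benjamini-Hochberg adjustment over the whole table. Folds are from that model and need not equal the ratio of means. At an unadjusted p under 0.05 there were 9 members in controls (26.4% of all genes) and 11 in mKO mice (27.3%). Of 8 fast fibre markers 3 rose and 1 fell with unloading in each genotype. None of 6 slow fibre markers was called in either, and their sum had a median of 22458 CPM in AMB Ctrl, 18959 in AMB mKO, 15495 in HU Ctrl and 11299 in HU mKO mice. Of 6 endothelial markers 2 fell in controls and 1 in mKO mice, and 1 of 5 tenocyte markers fell in each genotype. No adipocyte, Schwann cell, macrophage, satellite cell or fibro-adipogenic progenitor marker was called in either. The part of these cell types in the results below was not tested.

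Klhl34 had the largest response of the 39 in both genotypes, and it fell. In AMB Ctrl mice it ran from 64.3 over a median of 93.1 to 150.1 CPM, and in HU Ctrl mice from 16.5 over 19.9 to 39.9 CPM. Every unloaded control lay below every ambulatory one. The fall was 4.17-fold (log2 -2.06 ± 0.42 SE, adjusted p = 0.00234).

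In mKO mice Klhl34 fell 3.73-fold (log2 -1.90 ± 0.43 SE, adjusted p = 0.00645). It ran from 1.63 over 82.3 to 147 CPM in AMB mKO and from 14.8 over 19.2 to 33.5 CPM in HU mKO mice. AMB mKO replicate 2 held the 1.63 CPM, and the other 6 mice of its group, at 54.6 CPM or more, lay above all 8 unloaded ones. Both calls held when any one of the 30 libraries was left out (highest adjusted p 0.00680 in controls and 0.0311 in mKO mice). In a model of the 2 mKO groups alone the call ended (adjusted p = 0.0698), and without AMB mKO replicate 2 in that model it returned (log2 -2.34, adjusted p = 0.00015). Titles end in a letter a, b or c that is not explained. Within these letters the difference of mean log2 CPM of Klhl34 was -1.95, -2.40 and -1.81 in controls and -2.40, -2.01 and 0.81 in mKO mice, where the last was -1.78 without AMB mKO replicate 2.

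Klhl9, which with Klhl13 targets Aurora B in dividing cells and whose defects cause an inherited distal myopathy, fell in both genotypes by a smaller amount. It ran from 87.5 over 105 to 123 CPM in AMB Ctrl and from 66.9 over 76.4 to 111 CPM in HU Ctrl mice, a 1.31-fold fall (log2 -0.38 ± 0.13 SE, adjusted p = 0.0452). The groups overlapped through 2 unloaded mice, HU Ctrl replicates 1 and 2 (111 and 93.3 CPM), while the other 5 lay below all ambulatory ones. In mKO mice it ran from 70.8 over 110 to 129 CPM when ambulatory and from 68.4 over 78.2 to 85.5 CPM when unloaded (log2 -0.39 ± 0.13 SE, adjusted p = 0.0494). Both values sat close to the threshold: leaving out 1 library at a time, the call held in 17 of 30 fits in controls and 12 of 30 in mKO mice, with adjusted p up to 0.100 and 0.101. Without a filter on low counts the adjusted p was 0.126 and 0.130, and in a model of the 2 mKO groups alone it was 0.142.

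Klhl15, an adaptor known to act on a regulatory subunit of the phosphatase PP2A, rose in controls. It ran from 6.39 over 8.84 to 10.3 CPM in AMB Ctrl and from 10.1 over 11.5 to 13.2 CPM in HU Ctrl mice, and 5 of the 7 unloaded mice lay above all ambulatory ones. The rise was 1.39-fold (log2 0.48 ± 0.11 SE, adjusted p = 0.00645), and the call held in all 30 fits without 1 library. In mKO mice the value was 0.28 ± 0.12, without passing (adjusted p = 0.108). There Klhl15 ran from 5.69 over 9.28 to 10.7 CPM when ambulatory and from 10.5 over 11.2 to 12.7 CPM when unloaded. Of the 8 unloaded mKO mice 6 lay above all ambulatory ones.

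Klhl33 rose 2.13-fold in controls (log2 1.09 ± 0.35 SE, adjusted p = 0.0404). Its values ran from 43.1 over 91.0 to 129 CPM in AMB Ctrl and from 113 over 151 to 290.0 CPM in HU Ctrl mice, and 6 of the 7 unloaded mice lay above all ambulatory ones. In mKO mice Klhl33 measured 0.93 ± 0.36 (adjusted p = 0.0958). It ran there from 19.6 over 86.9 to 183 CPM when ambulatory and from 52.9 over 195 to 376 CPM when unloaded. Of the 8 unloaded mKO mice 5 lay above all ambulatory ones. The control call held in 19 of 30 fits without 1 library, with adjusted p up to 0.105, and ended without a filter on low counts (0.0904). With the title letter in the model the mKO value passed too (log2 1.12, adjusted p = 0.00984).

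Klhl13, the partner of Klhl9 in mitosis, rose 1.57-fold in controls (log2 0.65 ± 0.19 SE, adjusted p = 0.0267). It ran from 8.93 over 12.8 to 15.6 CPM in AMB Ctrl and from 9.73 over 19.95 to 28.1 CPM in HU Ctrl mice, where 4 mice lay above and 3 within the ambulatory range. The call ended in a model without sex (adjusted p = 0.0899) and in 6 of 30 fits without 1 library (AMB Ctrl replicates 4, 5 and 6 and HU Ctrl replicates 1, 2 and 7, adjusted p up to 0.0814). Within the title letters the control difference was -0.02, 0.92 and 0.51. In mKO mice Klhl13 measured 0.07 ± 0.20, and 0.22 without AMB mKO replicate 2. It averaged 19.1 ± 7.05 CPM in AMB mKO and 22.8 ± 7.15 CPM in HU mKO mice.

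Klhl23 and Klhl3 rose in mKO mice. Klhl23 ran from 3.44 over 37.0 to 54.6 CPM in AMB mKO and from 34.2 over 53.8 to 150 CPM in HU mKO mice (log2 1.08 ± 0.35 SE, adjusted p = 0.0435). Its lowest ambulatory value was again AMB mKO replicate 2, and its highest unloaded value, HU mKO replicate 5, lay far above the next mouse at 81.8 CPM. The Klhl23 call held in 17 of 30 fits without 1 library, with adjusted p up to 0.175. It also ended in a model without sex (log2 0.83, adjusted p = 0.132), without a filter on low counts (0.103) and in a model of the 2 mKO groups alone, with AMB mKO replicate 2 (0.132) or without it (0.113). Within the title letters its differences were 1.46, 0.60 and 1.39, the last -0.58 without AMB mKO replicate 2. Klhl3, which is known to mark WNK kinases for breakdown and so to control salt transport in the kidney, ran from 2.10 over 5.07 to 7.69 CPM in AMB mKO and from 6.17 over 8.01 to 12.8 CPM in HU mKO mice (log2 0.77 ± 0.25 SE, adjusted p = 0.0464). The Klhl3 call held in 9 of 30 such fits, with adjusted p up to 0.0936, and ended without a filter on low counts (0.0685) and with the 2 mKO groups alone (0.118). In controls Klhl23 measured 0.54 ± 0.33 and Klhl3 0.63 ± 0.24, neither past the threshold. Klhl23 averaged 32.8 ± 10.3 CPM in AMB Ctrl and 51.7 ± 19.0 CPM in HU Ctrl mice, and Klhl3 5.15 ± 1.33 and 7.84 ± 3.00 CPM. With the 2 control groups alone Klhl23 passed (adjusted p = 0.0474). Klhl3 passed in controls with the title letter in the model (adjusted p = 0.0473) and with limma-voom (log2 0.76, adjusted p = 0.0155).

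**Figure D1:**
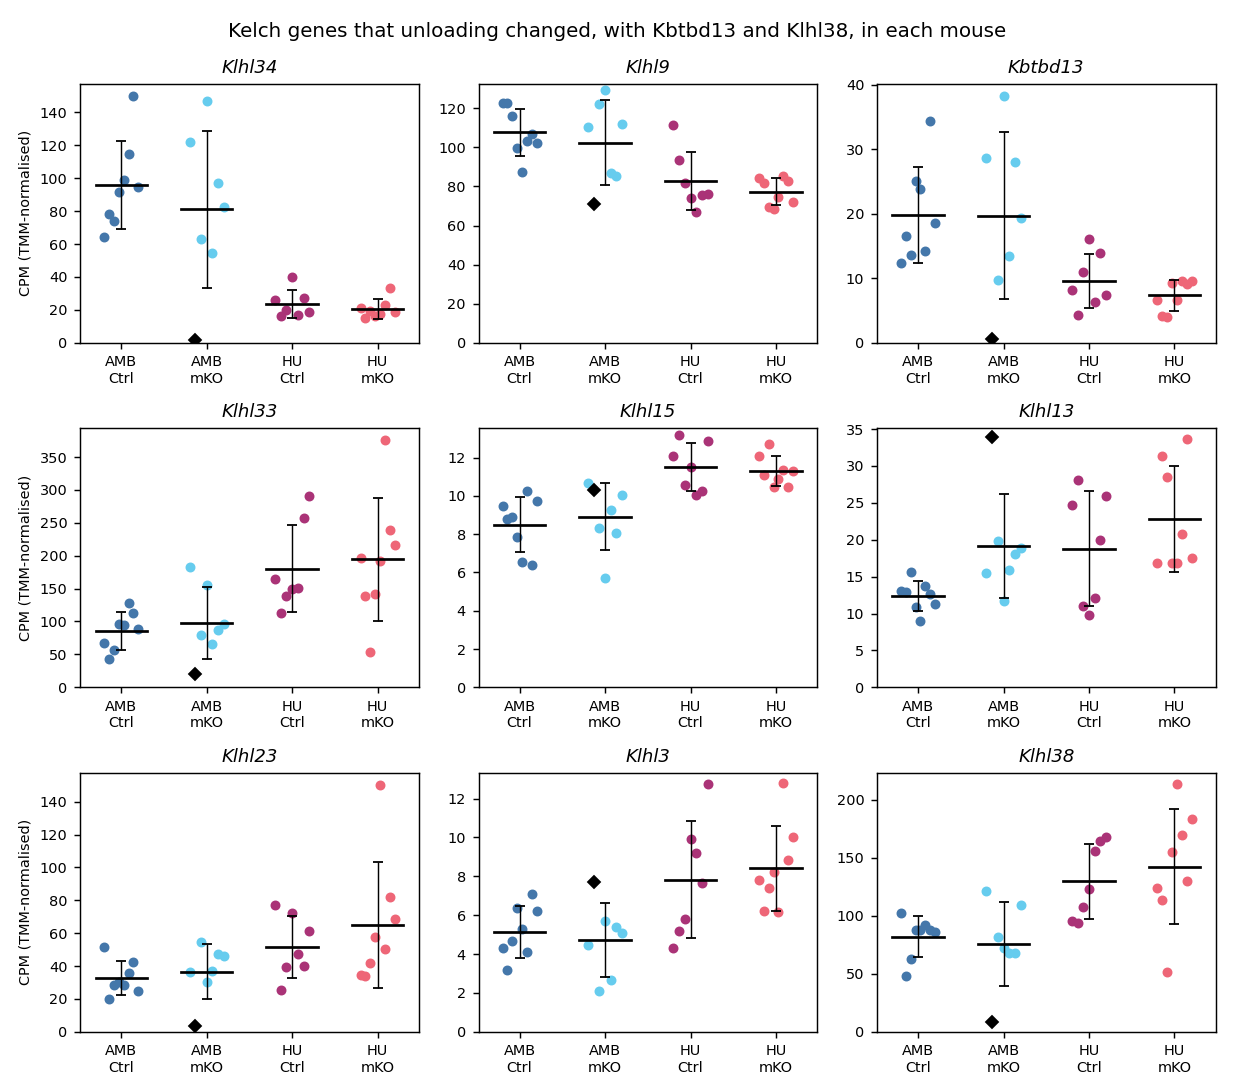
CPM (y axis, from 0) of 9 kelch genes in each mouse of the 4 groups (x axis); points are mice, thick lines group means, error bars 1 SD, and the black diamond is AMB mKO replicate 2. Klhl34 lies at 64.3 CPM or more in all AMB Ctrl mice and at 39.9 CPM or less in all unloaded mice.

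Among the 11 genes listed as muscle and sarcomere members, 1 rose (Klhl33) and 2 fell (Klhl34 and Klhl9) in unloaded controls. In unloaded mKO mice none rose and the same 2 fell. Of all genes 11.1% were called with unloading in controls and 10.1% in mKO mice. The list was chosen with earlier results of these data known, so these counts show no trait of muscle members. The most abundant of the 11 were not called in edgeR. Klhl41 ran from 617 over 766 to 903 CPM in AMB Ctrl, from 34.6 over 893 to 1003 CPM in AMB mKO, from 486 over 798 to 1032 CPM in HU Ctrl and from 566 over 886 to 1395 CPM in HU mKO mice. Its log2 change with unloading was 0.0068 ± 0.36 SE in controls (95% interval -0.73 to 0.74) and 0.33 ± 0.38 in mKO mice (-0.45 to 1.10). The mKO value was 0.039 without AMB mKO replicate 2. The control interval reaches past the size of the Klhl13 change on both sides of 0. It rests on a spread shared by all 4 groups, AMB mKO replicate 2 included.

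Klhl40 likewise overlapped in all 4 groups. It averaged 148 ± 23.7 CPM in AMB Ctrl, 157 ± 77.0 in AMB mKO, 138 ± 45.4 in HU Ctrl and 154 ± 40.6 in HU mKO mice, with log2 changes of -0.19 ± 0.33 in controls and 0.13 ± 0.34 in mKO mice. Without AMB mKO replicate 2 the latter was -0.16. Klhl31 averaged 470.3 ± 93.7, 503 ± 222, 663 ± 216 and 796 ± 361 CPM in the same order (log2 0.48 ± 0.37 and 0.73 ± 0.40), and its mKO value was 0.44 without AMB mKO replicate 2. In controls its adjusted p in edgeR was 0.437, and 5 of the 7 unloaded mice lay above all ambulatory ones. With limma-voom Klhl31 passed in controls (log2 0.66, adjusted p = 0.0423). DESeq2 gave an adjusted p of 0.421 there, and edgeR with the title letter in the model 0.581. Klhl24, whose defects cause skin fragility and cardiomyopathy, averaged 397 ± 47.9, 369 ± 137, 375 ± 51.1 and 385 ± 65.0 CPM, with a change of -0.08 ± 0.19 in controls (95% interval -0.47 to 0.31).

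Kbtbd13 and Klhl38 lay near the threshold. Kbtbd13 ran from 12.3 over 17.6 to 34.3 CPM in AMB Ctrl and from 4.27 over 8.24 to 16.05 CPM in HU Ctrl mice (log2 -1.10 ± 0.42 SE, adjusted p = 0.0879), and from 0.63 over 19.4 to 38.3 CPM in AMB mKO and 4.06 over 7.89 to 9.63 CPM in HU mKO mice (log2 -1.28 ± 0.44 SE, adjusted p = 0.0573). Apart from AMB mKO replicate 2, which held the 0.63 CPM, all ambulatory mKO mice lay above all unloaded ones. Without that library Kbtbd13 fell in both genotypes (log2 -1.07, adjusted p = 0.0140 in controls, and log2 -1.56, adjusted p = 0.00156 in mKO mice), and DESeq2 called it in both with all 30 libraries (adjusted p = 0.0487 and 0.0240).

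Klhl38 ran from 47.7 over 87.5 to 103 CPM in AMB Ctrl and from 94.0 over 123 to 168 CPM in HU Ctrl mice (log2 0.65 ± 0.31 SE, adjusted p = 0.179). In mKO mice it ran from 8.69 over 72.7 to 121 CPM when ambulatory and from 51.5 over 142 to 213 CPM when unloaded (log2 0.97 ± 0.32 SE, adjusted p = 0.0515). Without AMB mKO replicate 2 Klhl38 rose in controls (log2 0.67, adjusted p = 0.0282) and in mKO mice (log2 0.74, adjusted p = 0.0300), although in a model of the 2 mKO groups alone without that library the adjusted p was 0.0937. Klhl30 averaged 59.6 ± 16.3 CPM in AMB Ctrl, 54.3 ± 26.3 in AMB mKO, 40.0 ± 15.9 in HU Ctrl and 35.0 ± 12.5 in HU mKO mice. Kbtbd12 averaged 98.6 ± 44.9, 108 ± 55.0, 91.5 ± 19.5 and 84.5 ± 40.5 CPM in the same order. Klhl30 (-0.63 ± 0.34 in controls, -0.49 ± 0.36 in mKO mice) and Kbtbd12 (-0.14 ± 0.39 and -0.27 ± 0.41) did not pass. With the title letter in the model Klhl30 fell in controls (log2 -0.75, adjusted p = 0.0460). The mKO values without AMB mKO replicate 2 were -0.76 for Klhl30 (adjusted p = 0.0522) and -0.54 for Kbtbd12, and Klhl30 fell with the 2 mKO groups alone and that library left out (log2 -0.96, adjusted p = 0.0279).

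**Figure D2:**
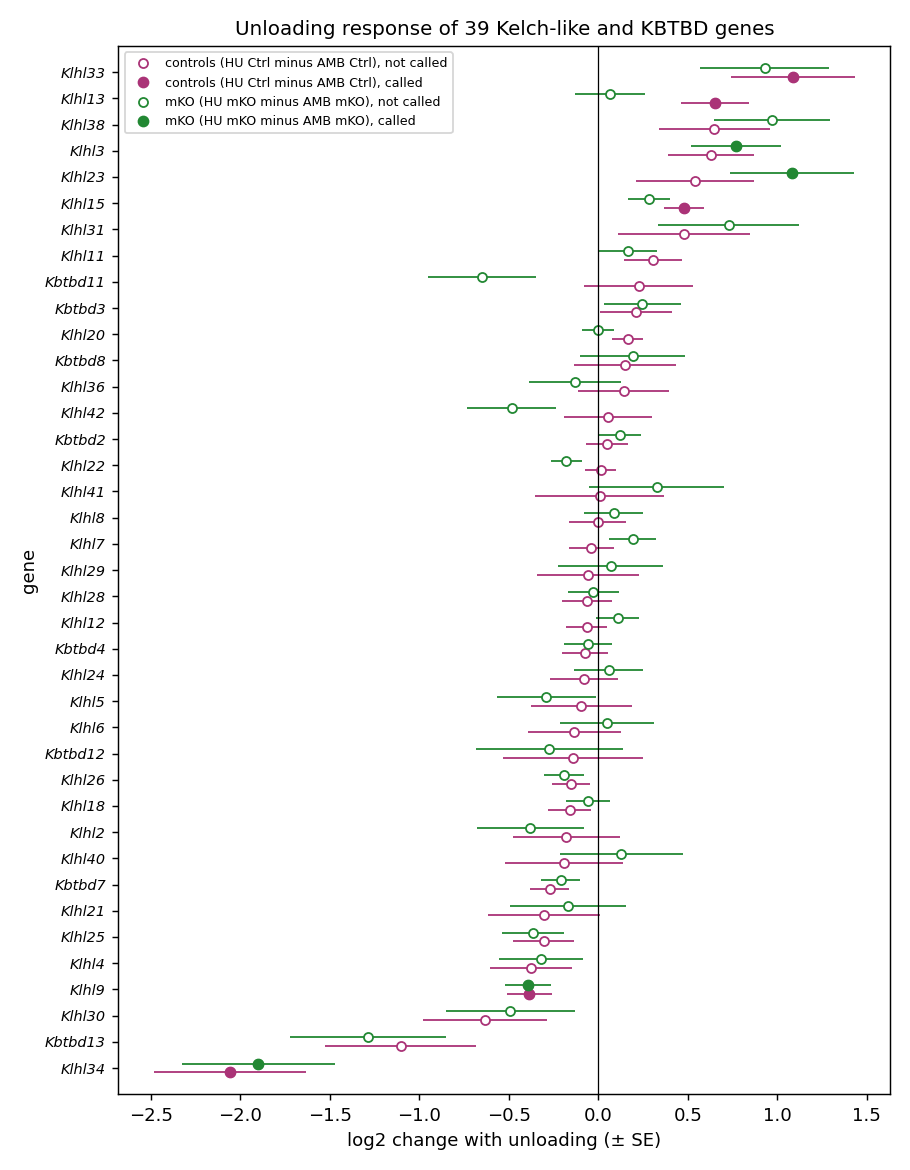
log2 change with unloading (x axis, ± SE) of the 39 members (y axis) in controls and in mKO mice; filled points were called at an adjusted p below 0.05. Klhl34 has the lowest value in both genotypes, at -2.06 in controls and -1.90 in mKO mice.

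The unloading responses of the 2 genotypes come from different mice. The sign was the same in 27 of the 39 members. Of the 5 genes called in controls 2 were called in mKO mice (40% of the former list and 50% of the latter), namely Klhl34 and Klhl9. The matching shares over all genes were not computed, so the shared signs and calls show no trait of the family. The difference between the responses was tested as the interaction of genotype and unloading, and no member was called, as no gene of the table was (0% of 16932 in edgeR, with 2.42% at an unadjusted p under 0.05, and none of the members in DESeq2). At an unadjusted p under 0.05 there was 1 member, Klhl13 (log2 difference -0.58 ± 0.28, unadjusted p = 0.0434, adjusted p = 0.999). The next smallest p belonged to Kbtbd11 (-0.87 ± 0.44), Klhl22 (-0.19 ± 0.12), Klhl42 (-0.54 ± 0.36) and Klhl20 (-0.17 ± 0.13). With AMB mKO replicate 2 left out these were -0.33, -0.14, -0.30 and -0.14, and Klhl13 was -0.43. Klhl34 had an interaction of 0.16 with a 95% interval of -1.07 to 1.39, which leaves room for a difference in either direction.

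Loss of AMPK called no member at either loading. In edgeR 0 of 39 passed in ambulatory mice, where 0.0177% of all genes were called (0.0118% higher and 0.00591% lower), and log2 values ran from -0.31 to 0.92 with a median of -0.07 (0.02 over all genes). At an unadjusted p under 0.05 there were 3 members, and 7.62% of all genes. These were Klhl13 (log2 0.78 ± 0.20, adjusted p = 0.502), Kbtbd11 (0.92 ± 0.30, adjusted p = 0.534) and Klhl20, an adaptor known to act on the autophagy kinase ULK1 (0.28 ± 0.09, adjusted p = 0.534). Klhl13 ran from 8.93 to 15.6 CPM in AMB Ctrl and from 11.7 to 33.9 CPM in AMB mKO mice, the highest value being that of replicate 2. Without that library the log2 values were 0.64 for Klhl13, 0.45 for Kbtbd11 and 0.25 for Klhl20. In unloaded mice 0 of 39 passed in edgeR and none had an unadjusted p under 0.05 (0.0177% and 1.78% of all genes, the former again 0.0118% higher and 0.00591% lower), and log2 values ran from -0.30 to 0.44. DESeq2 called 0 members in both comparisons.

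No member was called between females and males, for whom 0.213% of all genes were called in edgeR (0.0532% higher and 0.159% lower in females). At an unadjusted p under 0.05 there were 4 members, and 12.6% of all genes. Klhl22, which is known to target an inhibitor of mTORC1, measured log2 0.24 ± 0.06 higher in females (27.6 against 23.8 CPM on average, adjusted p = 0.114), and Klhl13 0.53 ± 0.14 (21.3 against 15.1 CPM, adjusted p = 0.130). DESeq2 called both Klhl22 and Klhl13 (adjusted p = 0.0224 and 0.0491), while without AMB mKO replicate 2 edgeR gave 0.280 and 0.456. With HU mKO replicates 2 and 3 also left out, edgeR gave log2 0.24 and 0.39 (adjusted p = 0.170 and 0.618). In females the median log2 value was 1.69 higher over 5 Schwann cell markers and 1.51 higher over 8 adipocyte markers. None of these markers was called, and their part in the values of Klhl22 and Klhl13 was not tested. Klhl15 measured 0.19 ± 0.08 and Klhl23 -0.64 ± 0.24. Klhl13, Klhl15, Klhl34 and Klhl4 are the 4 members on the X chromosome.

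Many members had extreme values in AMB mKO replicate 2. Of the 39, 17 had their lowest value of all 30 libraries there and 8 their highest. The share of all genes at an extreme in this library was not computed, so these counts and those below show no trait of the family. Klhl34 was 58.0-fold lower than the mean of the other 6 mice of its group, Kbtbd13 36.2-fold lower and Klhl41 25.2-fold lower. Klhl31, Klhl40, Kbtbd12, Klhl30 and Klhl23 were 12.2-fold to 19.5-fold lower, and Klhl38 stood at 8.69 against 86.9 CPM. Klhl5 was 4.03-fold higher, Kbtbd11 3.49-fold and Klhl2 3.29-fold. Of the 11 muscle members 10 had their lowest value there, and the other, Klhl9, had 3 libraries below it. The TMM scaling bears on these values, since it set the effective size of this library at 1.63 times its total count, against 0.786 to 1.43 times in the other 29. Scaled by total counts alone, an alternative chosen after seeing the data, 12 members had their lowest value there and 16 their highest. Klhl34 was then 32.5-fold, Kbtbd13 20.3-fold and Klhl41 14.1-fold lower, and Klhl5 7.10-fold higher. The same count of muscle members, 10 of 11, had their lowest value there, while Klhl9 turned from 1.52-fold lower to 1.17-fold higher than the mean of the other 6 mice. Muscle markers were low and adipocyte markers high in the same library, as were Schwann cell markers, with the sums given above, and their part in these values was not tested.

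**Figure D3:**
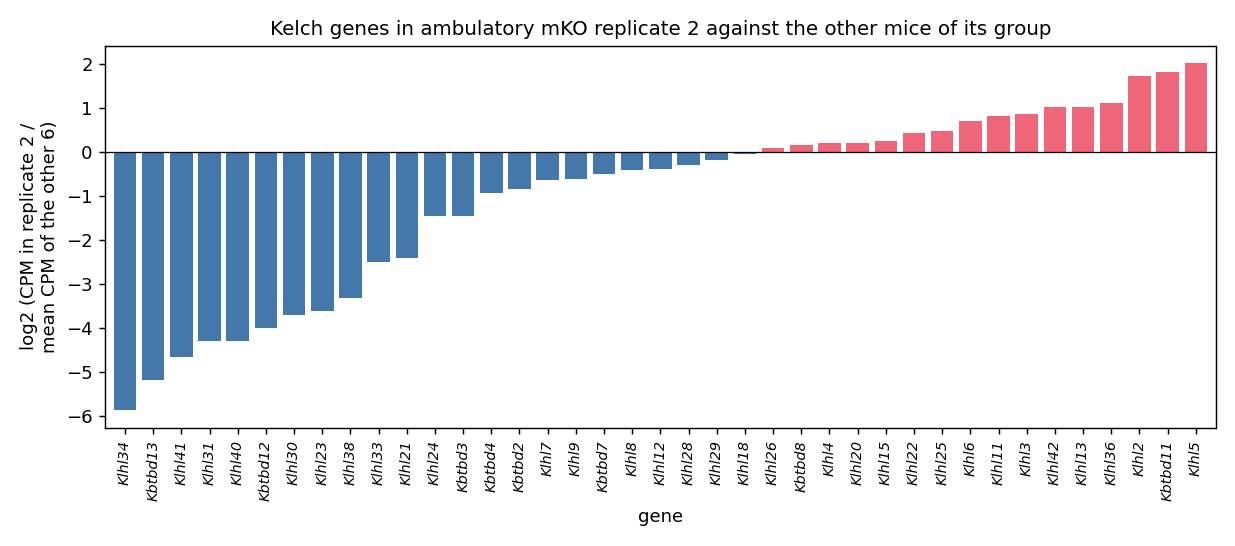
log2 ratio (y axis) of CPM in AMB mKO replicate 2 to the mean of the other 6 AMB mKO mice for each of the 39 members (x axis); bars below 0 are lower in replicate 2. Klhl34 and Kbtbd13 have the lowest ratios and Klhl5 the highest.

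Within groups, 4 of 6 pairs of a muscle kelch gene with another muscle gene varied together from mouse to mouse. The 6 pairs were examined on log2 CPM with group and sex removed, and because AMB mKO replicate 2 dominates any such relation, values without it are given first (29 mice). Klhl41 and Neb, the gene of nebulin, had Pearson r = 0.92 and Spearman rho = 0.88 (two-sided permutation p = 1e-05 for both, the smallest that 100000 resamples can give, adjusted p = 3e-05 over the 6 pairs). Klhl38 and Fbxo32, the gene of the atrophy ubiquitin ligase atrogin-1, had r = 0.85 and rho = 0.86 (permutation p = 1e-05, adjusted p = 3e-05 for both). With the 2 mice farthest from the median of the first gene also left out, r was 0.89 and 0.79.

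Klhl40 with Klhl41 gave r = 0.60 and rho = 0.57 (permutation p = 0.00058 and 0.00159, adjusted p = 0.00116 and 0.00239), and Klhl31 with Flnc, the gene of filamin C, r = 0.57 and rho = 0.60 (permutation p = 0.00122 and 0.00076, adjusted p = 0.00183 and 0.00152). Without the 2 farthest mice these were r = 0.53 and 0.59. Klhl40 with Neb (r = 0.37, rho = 0.38, permutation p = 0.0475 and 0.0432, adjusted p = 0.0570 and 0.0519) and Klhl40 with Lmod3, the gene of leiomodin-3 (r = 0.31, rho = 0.29, permutation p = 0.0968 and 0.130, adjusted p equal to these), did not pass, and without the 2 farthest mice r was 0.35 and 0.21. Over all 30 mice all 6 pairs passed, with r from 0.85 to 0.98. Relations within single title letters were not computed. Those of other pairs of muscle genes were not computed either, so these values show no trait of the 6 pairs. The HU mKO libraries with high adipocyte sums stayed among the 29 mice. Slow fibre markers summed to 6849 to 31864 CPM in these 29 libraries, a range that pools the 4 groups. The part of muscle fibre content in the relations was not tested.

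**Figure D4:**
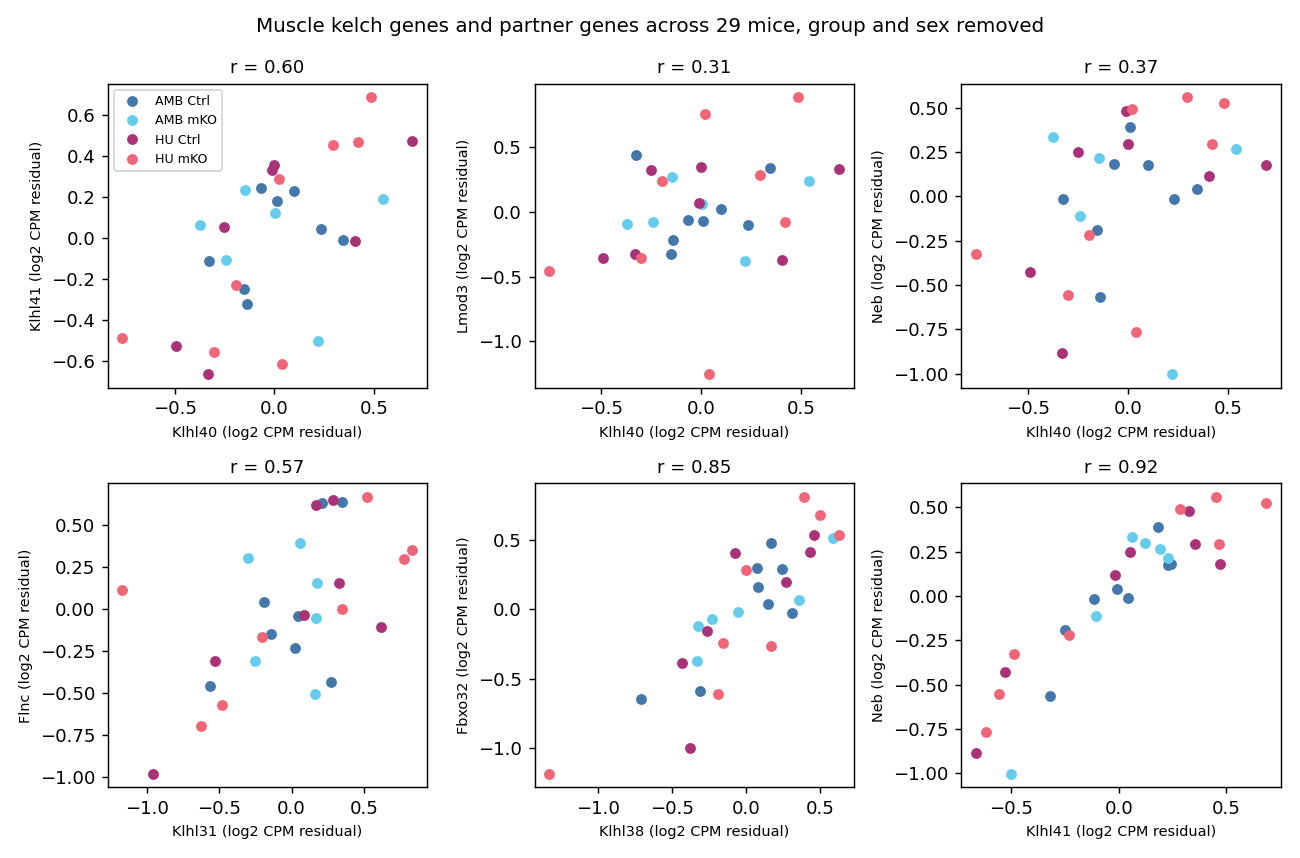
log2 CPM with group and sex removed, for 6 pairs of a kelch gene (x axis) and another muscle gene (y axis). Each point is 1 of 29 mice, coloured by group, and AMB mKO replicate 2 is left out. Klhl41 with Neb (r = 0.92) and Klhl38 with Fbxo32 (r = 0.85) form the tightest relations.

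Group means and changes of partner genes were also read beside those of the kelch genes. All are RNA values, and no difference between a kelch gene and its partner was tested. Neb averaged 18939 ± 3527 CPM in AMB Ctrl and 18636 ± 5289 CPM in HU Ctrl mice (log2 -0.05 ± 0.40), and Lmod3 145 ± 20.4 and 122 ± 32.3 CPM (-0.25 ± 0.39). Flnc fell 2.59-fold in controls, from 4434 ± 1418 to 1773 ± 641 CPM (log2 -1.37 ± 0.40, adjusted p = 0.0248), with no overlap, while Klhl31 measured 0.48 ± 0.37. The Flnc call ended without AMB Ctrl replicate 7 or HU Ctrl replicate 2 (adjusted p up to 0.0588). In mKO mice Flnc measured -1.05 ± 0.41 (adjusted p = 0.0953). Pik3r1, whose product is a substrate of Kbtbd2, rose 2.00-fold in controls (log2 1.00 ± 0.19, adjusted p = 0.000985), and Kbtbd2 measured 0.05 ± 0.12. Tiam1, whose product is a substrate of the Kbtbd6 and Kbtbd7 pair, fell in mKO mice (log2 -0.45 ± 0.15, adjusted p = 0.0483), and Kbtbd7 there measured -0.21 ± 0.11. The Tiam1 call held in only 7 of 30 fits without 1 library (adjusted p up to 0.210). Of 27 known partners and substrates 26 were tested, of which 1 rose and 1 fell in controls, where 11.1% of all genes were called, and none rose and 1 fell in mKO mice, where 10.1% were. Their median log2 change was -0.06 and -0.12, against 0.03 and -0.04 over all genes.

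None of the 24 genes of CUL3, its RING partner, neddylation and the COP9 signalosome passed in any of the 6 comparisons in edgeR, where 11.1% and 10.1% of all genes passed with unloading in controls and mKO mice and 0% to 0.213% in the other 4. Cul3 averaged 136 ± 21.5 CPM in AMB Ctrl and 164 ± 52.3 CPM in HU Ctrl mice (log2 0.24 ± 0.23), and Rbx1, the RING subunit, 48.2 ± 8.15 and 47.1 ± 6.22 CPM (-0.05 ± 0.13). Their median log2 change with unloading was -0.02 in controls and 0.05 in mKO mice.

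The other members were grouped by role, with 11.1% of all genes called in unloaded controls and 10.1% in unloaded mKO mice as background. Of 7 members tied to cell division, Klhl13 rose and Klhl9 fell in unloaded controls and Klhl9 fell in unloaded mKO mice; Klhl21, Klhl22, Klhl18, Klhl42 and Kbtbd8 were not called. Of 10 members tied to signalling and transport 1 rose in each genotype, Klhl15 in controls and Klhl3 in mKO mice. Klhl12, which is known to help collagen leave the endoplasmic reticulum, measured -0.06 ± 0.11 and 0.11 ± 0.12, and Klhl7 -0.04 ± 0.13 and 0.19 ± 0.13. The 12 members in none of these lists were Klhl4, Klhl5, Klhl6, Klhl8, Klhl11, Klhl23, Klhl26, Klhl28, Klhl29, Klhl36, Kbtbd3 and Kbtbd11, of which Klhl23 alone was called, in unloaded mKO mice.

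Promoters are shown for 4 muscle members, Klhl34 and Klhl33 as the members that fell and rose most in unloaded controls, and Klhl40 and Klhl41 as a pair that varied together. Of the 39 members 33 had at least 1 start site in RefSeq's table (GRCm38.p6, a build before that of the counts). The 250 bases before each start were searched on both strands for CAGCTG, the E-box form favoured by myogenic factors, the MEF2 motif, the CArG box, GTAAACA and AAGGTCA. The choice of motifs and of the promoters shown was made after the members' values were known, and only windows with a match are printed. Capitals mark matches, and the text runs 5′ to 3′ on the gene's strand.
Klhl34 (chrX:157818185-157818434, plus strand): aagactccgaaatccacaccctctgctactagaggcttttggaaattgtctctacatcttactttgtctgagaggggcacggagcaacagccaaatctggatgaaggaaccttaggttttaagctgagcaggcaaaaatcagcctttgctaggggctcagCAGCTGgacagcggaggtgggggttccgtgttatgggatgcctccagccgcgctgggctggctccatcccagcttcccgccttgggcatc
Klhl33 (chr14:50897484-50897733, minus strand): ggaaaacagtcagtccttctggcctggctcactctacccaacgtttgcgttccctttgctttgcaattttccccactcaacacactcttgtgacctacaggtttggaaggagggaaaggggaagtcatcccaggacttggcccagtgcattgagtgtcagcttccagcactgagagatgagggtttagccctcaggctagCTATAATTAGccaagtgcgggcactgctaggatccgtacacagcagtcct
Klhl40 (chr9:121777357-121777606, plus strand): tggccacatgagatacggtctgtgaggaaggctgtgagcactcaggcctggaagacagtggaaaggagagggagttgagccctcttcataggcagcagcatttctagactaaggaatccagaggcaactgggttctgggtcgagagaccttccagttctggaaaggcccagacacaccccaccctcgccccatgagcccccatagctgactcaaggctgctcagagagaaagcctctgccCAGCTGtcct
Klhl41 (chr2:69669870-69670119, plus strand): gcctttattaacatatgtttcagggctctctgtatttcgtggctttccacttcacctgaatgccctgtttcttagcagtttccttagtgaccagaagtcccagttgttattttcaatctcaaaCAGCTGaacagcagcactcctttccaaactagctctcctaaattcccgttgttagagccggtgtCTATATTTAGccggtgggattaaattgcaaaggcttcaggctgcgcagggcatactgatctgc

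CAGCTG occurred 90 bases before the start of Klhl34, 10 before that of Klhl40 and 127 before that of Klhl41, and in 8 of the 33 members, which have 45 windows between them. It is in 13.0% of the 32851 windows of the table, a share of windows and not of genes. The MEF2 motif lay 50 bases before the start of Klhl33 and 63 before that of Klhl41, and was also in a window of Kbtbd12, which makes 3 of the 33 members. It is in 2.92% of all windows. The other motifs matched in no member window, and lie in 1.47% (CArG box), 3.17% (GTAAACA) and 4.08% (AAGGTCA) of all windows. A match is a run of letters and does not show that a factor binds there.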

How the data were processed

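Directional RNA libraries from 30 soleus muscles were read on an Illumina NovaSeq, per the labels' protocols, whose other passages speak of people and cultured myotubes and were not used. The authors deposited 1 table of raw counts, whole numbers of reads for each gene and mouse. The submitters' processing notes name GRCm39 (mm39), and as tools STAR 2.7.9a, cutadapt 1.16, DESeq2 1.34.0 and featureCounts 1.6.3. For annotation release, strand setting and filters the entry is: not given in the sources used here. In GENCODE vM21 7 members, Klhl9, Klhl38 and Klhl40 among them, overlap an exon of a gene on the other strand, whose reads their counts may hold. A further 2 members, Klhl13 and Klhl15, overlap an exon of a gene on the same strand. The effect of these overlaps on the counts was not tested. A symbol was found for 52073 of 56980 genes.

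Counts of all 30 libraries were scaled by TMM and filtered by filterByExpr (default settings, 16932 genes kept). One robust quasi-likelihood model of the 4 groups and sex was fitted with edgeR 4.0.16 in R 4.3.3, and p-values were adjusted over all genes kept. A ± after a log2 change is a standard error. Alternatives used DESeq2 1.42.0, limma 3.58.1 (voom with library weights), other factors, filters, terms and subsets of libraries. Relations used log2 CPM with a prior count of 2. Totals of 12.1 to 20.9 M counts leave little counting error except for members at a few CPM. In no group did a pair of libraries agree within counting error. Each library is 1 mouse, and p-values measure the spread between these mice. The 4 groups share one estimate of the spread per gene, so AMB mKO replicate 2 also enters the comparisons of controls. Without it Kbtbd13 in controls went from an adjusted p of 0.0879 to 0.0140 in edgeR (log2 -1.10 and -1.07). Klhl31 in controls had an adjusted p of 0.437 in the full edgeR model and 0.0987 with the 2 control groups alone. The fit was tested on simulated counts with known changes in the HU Ctrl libraries. That simulation held no library that stood apart and no effect of sex, so it cannot show how these bear on the calls.

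The members, lists and alternatives were chosen with earlier results of these data known. Values by group are given for members called in any comparison and for the 11 muscle members, and named besides were the 5 members with the smallest interaction p, up to 4 called genes of each other list, and Cul3, Rbx1, Neb, Lmod3, Flnc, Prkaa1 and Prkaa2. Fbxo32 belongs to a relation. Kbtbd2, Kbtbd7, Klhl7, Klhl12, Keap1 and the members described for AMB mKO replicate 2, sex and unadjusted p were named after their values were seen. Replicates are numbered in accession order.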

Additional observations from a re-analysis of the deposited data

Results flagged for a closer look

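Among 15 members with values by group, 5 values passed Dixon's test, which divides the gap between the highest or lowest mouse and its nearest neighbour by the range of the whole group, in 60 sets of 7 or 8 mice. Chance flags about 1 in 20 such sets, and the sets share their libraries. A value many-fold below the group mean is not counted where the other mice are themselves widely spread, as for Klhl34 in AMB mKO replicate 2. The library of AMB mKO replicate 2 held 3 of them: Klhl31 at 29.8 CPM against 469 to 651 CPM in the other mice, Klhl41 at 34.6 CPM against 603 to 1003 CPM, and Klhl13 at 33.9 CPM against 11.7 to 19.8 CPM. Klhl23 in HU mKO replicate 5 measured 150.3 CPM against 34.2 to 81.8 CPM. Klhl34 in HU mKO replicate 7 measured 33.5 CPM against 14.8 to 23.1 CPM, still below all AMB Ctrl mice.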

How the results depend on the processing

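The counts of called members were small and moved with the settings. In unloaded controls 3 rose and 2 fell. The number rising was 5 with only the groups compared in the model and 6 with limma-voom, and the number falling was 1 without a low-count filter and 4 with the title letter or limma-voom. In unloaded mKO mice 2 rose and 2 fell. The number rising was 0 without a filter or with only the groups compared, 1 with sex left out or with only the groups compared and AMB mKO replicate 2 left out, 4 with the title letter or without the 3 adipocyte-rich libraries, and 5 with limma-voom. The number falling was 1 without a filter, 0 with only the groups compared, 4 in that model without AMB mKO replicate 2, and 4 with limma-voom. Leaving out 1 library at a time gave 1 to 4 rising and 1 to 3 falling in controls, 0 to 4 rising and 1 to 3 falling in mKO mice, and 0 to 1 member higher in females, where DESeq2 gave 2. The causes were not tested. Comparisons of genotype and the interaction gave 0 called members under every alternative run.

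Klhl34 and Klhl15 in controls stayed called under every alternative run. Signs turned for values near 0: Kbtbd12 in controls was 0.19 with limma-voom. Klhl41 in controls was -0.0022 with median-of-ratios factors and with DESeq2 and -0.11 with the title letter, and in mKO mice -0.033 with only the groups compared and AMB mKO replicate 2 left out. Klhl24 in mKO mice was -0.11 without AMB mKO replicate 2, -0.041 without the 3 adipocyte-rich libraries, -0.091 with limma-voom and -0.12 in the model of 2 groups without replicate 2. Klhl40 in mKO mice was -0.025 with sex left out, and -0.16, -0.14, -0.066 and -0.26 under the last 4. Without AMB mKO replicate 2, r fell to 0.31 for Klhl40 with Lmod3 and 0.37 for Klhl40 with Neb. Leaving out the libraries one at a time, other than AMB mKO replicate 2, and the model of 2 groups without that library were chosen after seeing the data. No paired analysis was possible because the labels give no replicate numbers that the groups share.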

Other observations

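Of 16 adaptors of CUL3 with a BTB domain outside the kelch family, 1 fell in each genotype with unloading and none rose, where 11.1% of all genes were called in controls and 10.1% in mKO mice. Rhobtb1 fell in controls from 86.3 ± 20.8 to 51.9 ± 12.9 CPM (log2 -0.77 ± 0.23 SE, adjusted p = 0.0277) and measured -0.38 ± 0.24 in mKO mice. Kctd17 fell in mKO mice from 17.7 ± 11.8 to 10.4 ± 4.59 CPM (log2 -0.84 ± 0.27 SE, adjusted p = 0.0404) and measured -0.69 ± 0.27 in controls, without passing. Without AMB mKO replicate 2 the Kctd17 change in mKO mice was -0.38 and the call ended (adjusted p = 0.316). The Rhobtb1 call held in 26 of 30 fits without 1 library, ending without AMB Ctrl replicates 4 or 5 or HU Ctrl replicates 2 or 5 (adjusted p up to 0.0677). Keap1, a kelch-repeat BTB adaptor that senses oxidative stress for the factor NRF2, was not called in any of the 6 comparisons in edgeR and averaged 55.8 ± 13.6 CPM in AMB Ctrl and 51.0 ± 12.4 CPM in HU Ctrl mice.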
